A study of Rattus norvegicus with 5 samples.

Results

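Genes of two-pore, inward-rectifier, calcium-activated and sodium-activated potassium channels were described in cultured cells of rat dorsal root ganglia (DRG), which hold the cell bodies of sensory neurons with their satellite glia. Members were all gene symbols of the deposited combined table that begin with Kcnj, Kcnk, Kcnn, Kcnt, Kcnu, Kcnma or Kcnmb followed by a number, whatever their level. The rule took 41 of 33014 genes: 15 inward rectifiers (Kir, Kcnj), 14 two-pore channels (K2P, Kcnk), 4 calcium-activated channels of small and intermediate conductance (SK/IK, Kcnn), 2 sodium-activated channels (Kcnt), Kcnu1, the large-conductance calcium-activated (BK) pore gene Kcnma1 and 4 BK beta subunits (Kcnmb).

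All 5 libraries were of 1 kind, so no group stood against another. They came from wild-type Sprague Dawley rats of postnatal day 10, and the labels name 1 litter of 10 pups. Each well was seeded with 5000 cells. Cultures received phosphate-buffered saline after 1 day and were harvested after 8 days, with 3 wells pooled for each sample. The libraries carry replicate numbers 1 to 5. Nothing in the labels says that they came from separate preparations, so every p-value below refers only to these samples. The spread between the samples may be technical. The series belongs to a platform that screens for pain drugs by reading neuronal firing with light.

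Potassium channels let potassium leave the cell and so hold the membrane near its resting voltage or bring it back there after a spike. Kir channels pass current most easily near rest and in glia take up potassium released by active neurons. K2P channels carry a steady leak current that sets how easily a sensory neuron fires, and several of them respond to stretch, heat, acid or lipids. SK, IK, BK and sodium-activated channels open when calcium or sodium enters during firing, which shapes the afterhyperpolarization and limits repeated spikes.

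Libraries held between 21596608 and 27913098 estimated reads, and each kilobase of effective transcript length received 13.3 to 17.4 reads at 1 TPM, the length-scaled unit of the table. Of the marker lists, all 13 neuronal, 11 Schwann cell, 7 satellite glia, 8 fibroblast and 10 macrophage genes reached 1 TPM in every library, along with 4 of 8 endothelial and 7 of 8 mural genes. Summed TPM ran from 8678 to 9109 for the neuronal list, from 1234 to 1955 for the macrophage list and from 217 to 392 for the mural list. The endothelial genes ran from a mean of 0.0967 TPM for Cldn5 to 18.6 TPM for Cdh5. RNA of all cell types was pooled, so the libraries do not show which cells expressed a channel, and fewer cells of a type cannot be told apart from less RNA per cell.

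Every class except Slo3 had a detected gene, and most levels were low. A gene was called detected at 1 TPM or more in every library, which held for 22 of 41 members. Over all genes of the table the same rule called 41.3%, and it called 22 of 40 voltage-gated potassium channel genes. The median member stood at 1.37 TPM, against 0.297 TPM for the median of all genes. Among detected genes the order turned, with 5.07 TPM for the median detected member against 20.5 TPM for the median detected gene. Only Kcnj10 and Kcnmb4 averaged more than 20 TPM. The 5 highest members, Kcnj10, Kcnmb4, Kcnt1, Kcnk10 and Kcnj3, held 53.4% ± 1.76 of the summed TPM of the members (SD, n = 5).

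**Figure D1:**
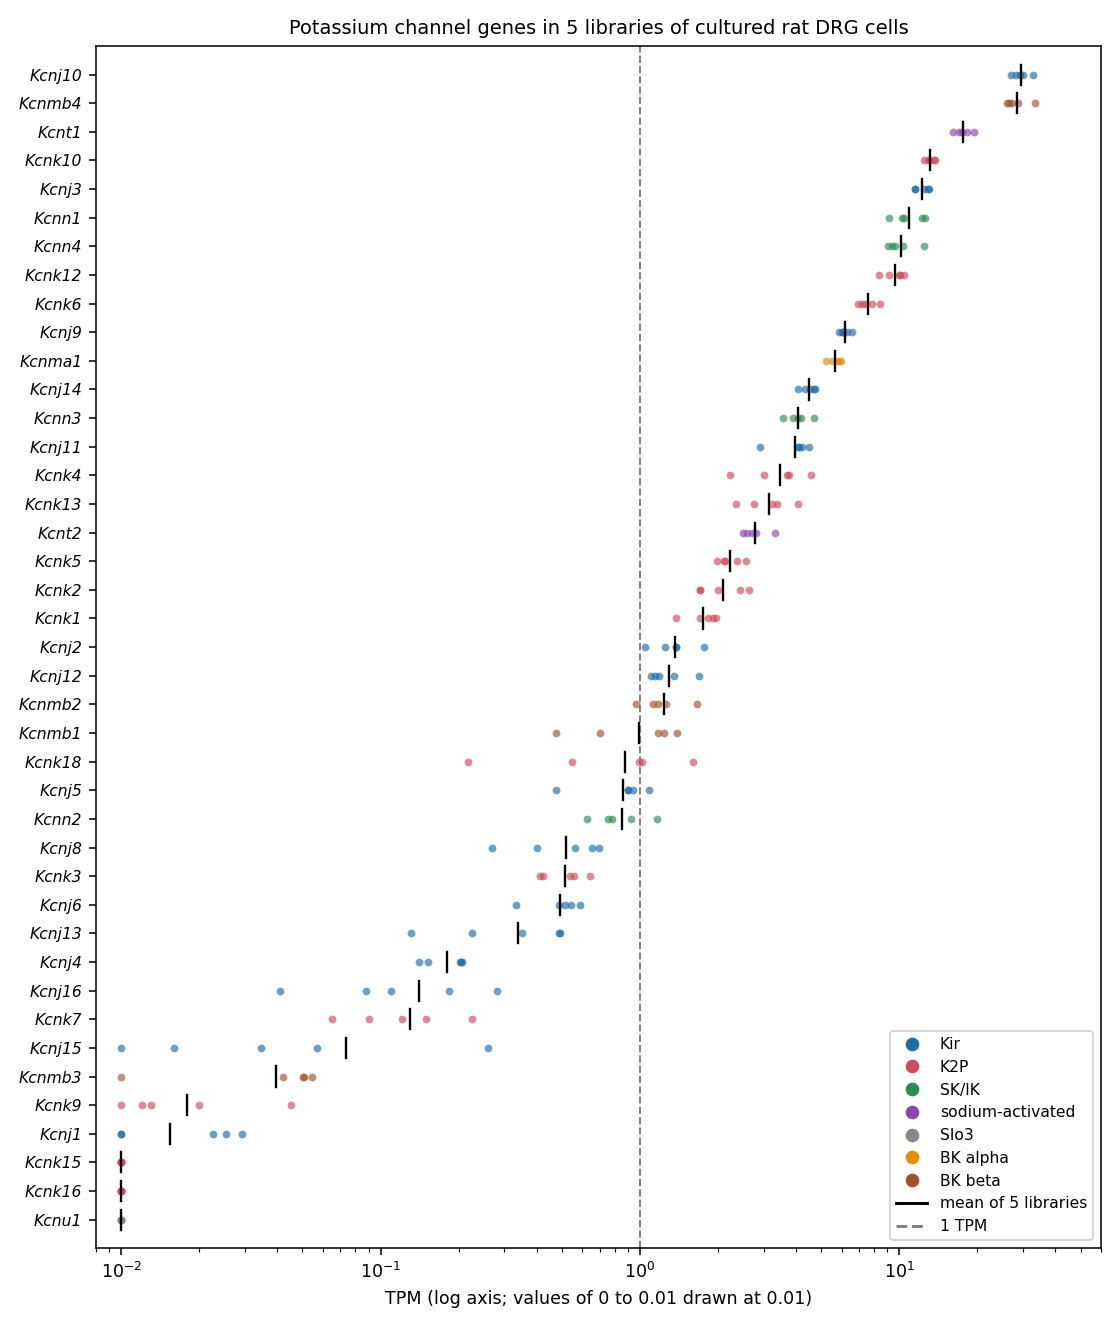
TPM of the 41 channel genes in each of 5 libraries (points, coloured by class, log axis), with the mean as a black tick and the detection threshold of 1 TPM as a dashed line. Kcnj10 and Kcnmb4 lie at the top with overlapping points, and 22 genes lie to the right of the dashed line in every library. Values of 0, among them all those of Kcnk15, Kcnk16 and Kcnu1, are drawn near the left edge of the log axis.

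The order of the detected members formed a slope with few steps. Of 21 pairs of neighbours in the order of mean TPM, 4 had ranges over the 5 libraries that did not overlap. These steps lay between Kcnmb4 and Kcnt1, between Kcnt1 and Kcnk10, between Kcnk6 and Kcnj9, and between Kcnma1 and Kcnj14. The other 17 neighbours had overlapping ranges. Among them Kcnk12 over Kcnk6, Kcnj9 over Kcnma1 and Kcnj14 over Kcnn3 kept their order in 5 of 5 libraries, and Kcnj10 over Kcnmb4 in 4 of 5. Read numbers are not given for 17 of the 41 members. Of these, 3 were at 0 and Kcnk7 had no named transcript. The named transcripts of the others gave no sum within 10% of the table in every library. The levels of Kcnk7 and of these others rest on the combined table alone. The named transcripts of Kcnj10, Kcnt1, Kcnn1, Kcnn3, Kcnk4, Kcnk1 and Kcnj2 summed to 19.4, 14.8, 6.92, 1.67, 2.55, 0.789 and 0 TPM, below their table values by more than 1 SD.

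By class, Kir genes held the largest share of the members' TPM, at 32.6% ± 0.412 (SD, n = 5). K2P genes held 23.6% ± 1.04, BK beta genes 16.2% ± 0.970, SK/IK genes 13.8% ± 0.749, sodium-activated genes 10.8% ± 0.256 and Kcnma1 3.00% ± 0.165. Summed TPM in replicates 1 to 5 was 58.5, 65.9, 62.1, 60.4 and 60.8 for Kir genes and 43.6, 44.9, 44.9, 42.0 and 47.5 for K2P genes. It was 29.4, 34.9, 31.0, 29.7 and 28.1 for BK beta genes and 22.8, 27.1, 25.9, 26.4 and 27.9 for SK/IK genes. The ranges of the classes did not overlap, although in replicate 5 the BK beta and SK/IK sums nearly met. Sodium-activated genes summed to 19.6, 22.1, 19.9, 19.4 and 21.0 TPM. Some sums rest on 1 gene: Kcnj10 averaged 29.4 of the 61.6 TPM of Kir genes and Kcnmb4 28.3 of the 30.6 TPM of BK beta genes.

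**Figure D2:**
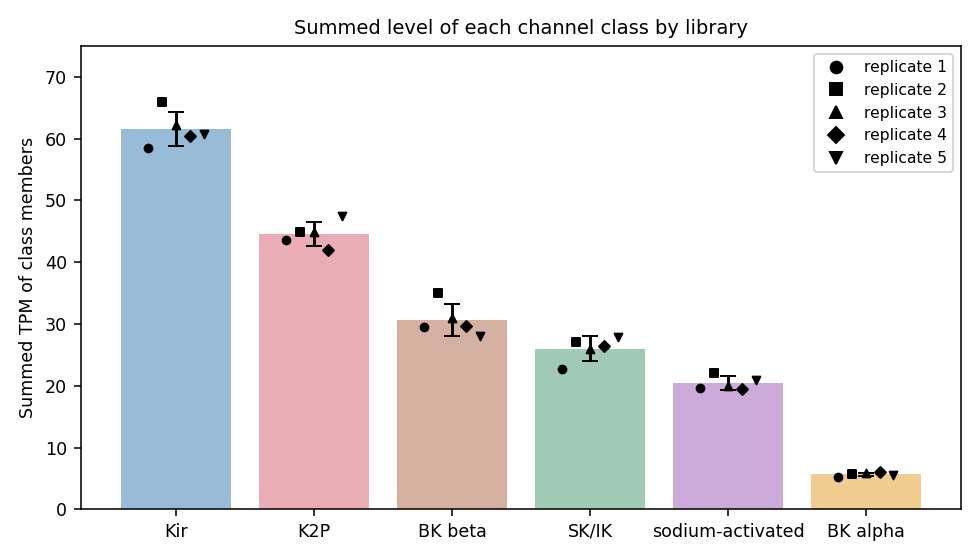
Summed TPM of the members of each class, with bars for the mean of 5 libraries, error bars for the SD and 1 marker for each replicate. Kir genes, at 61.6 TPM on average, lie highest in every library and Kcnma1, the single BK alpha gene, lowest at 5.66 TPM.

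The promoters of 5 members are shown because they contrast the top of the order with its neighbours in the genome or in the channel complex: Kcnj10 beside the adjacent gene Kcnj9, and the BK beta genes Kcnmb4 and Kcnmb1 beside Kcnma1. Sequences are the RefSeq windows of build GRCr8 around each annotated start, 300 bases read 5′ to 3′ on the strand of the gene, and 28 of 41 members had an entry. Capitals mark the GC box GGGCGG and the CCAAT box CCAAT, on either strand. No GC box overlaps a CCAAT box in these windows, whereas GC boxes of Kcnma1 overlap one another.
Kcnj10, chr13:87334260-87334559, plus strand: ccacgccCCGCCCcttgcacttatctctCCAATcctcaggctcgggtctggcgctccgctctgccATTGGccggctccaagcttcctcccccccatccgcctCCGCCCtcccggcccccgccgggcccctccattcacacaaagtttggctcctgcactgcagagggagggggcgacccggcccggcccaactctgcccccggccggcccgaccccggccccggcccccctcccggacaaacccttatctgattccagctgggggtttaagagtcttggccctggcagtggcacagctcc
Kcnj9, chr13:87320244-87320543, minus strand: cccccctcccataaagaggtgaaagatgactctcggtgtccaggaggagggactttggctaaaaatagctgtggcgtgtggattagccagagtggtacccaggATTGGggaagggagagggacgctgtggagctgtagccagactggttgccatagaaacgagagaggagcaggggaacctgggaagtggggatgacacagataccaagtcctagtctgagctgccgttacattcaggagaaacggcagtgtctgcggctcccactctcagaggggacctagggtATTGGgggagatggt
Kcnmb4, chr7:54005052-54005351, minus strand: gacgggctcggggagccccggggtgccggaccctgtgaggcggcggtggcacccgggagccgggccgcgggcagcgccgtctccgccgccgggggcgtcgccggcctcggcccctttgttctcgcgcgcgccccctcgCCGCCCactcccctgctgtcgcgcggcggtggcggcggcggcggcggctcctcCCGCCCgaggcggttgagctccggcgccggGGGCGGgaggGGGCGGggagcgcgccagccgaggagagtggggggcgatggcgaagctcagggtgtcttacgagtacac
Kcnma1, chr15:351675-351974, plus strand: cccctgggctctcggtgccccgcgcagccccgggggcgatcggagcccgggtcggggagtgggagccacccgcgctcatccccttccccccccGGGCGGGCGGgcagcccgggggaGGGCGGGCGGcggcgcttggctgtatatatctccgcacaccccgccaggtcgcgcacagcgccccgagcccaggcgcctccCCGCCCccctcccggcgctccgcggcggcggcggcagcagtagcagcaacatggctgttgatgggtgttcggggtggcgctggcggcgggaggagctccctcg
Kcnmb1, chr10:19061849-19062148, plus strand: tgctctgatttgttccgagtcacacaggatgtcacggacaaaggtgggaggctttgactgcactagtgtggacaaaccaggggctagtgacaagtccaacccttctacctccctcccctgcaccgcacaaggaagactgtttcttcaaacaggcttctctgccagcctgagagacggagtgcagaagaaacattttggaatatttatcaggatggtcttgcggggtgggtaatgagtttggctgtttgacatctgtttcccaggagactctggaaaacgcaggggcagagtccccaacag
The Kcnj10 window held 2 GC boxes and 2 CCAAT boxes, and that of Kcnj9 held 2 CCAAT boxes and no GC box. Among the BK genes, Kcnmb4 had 4 GC boxes, Kcnma1 had 5 and Kcnmb1 had neither letter string. The GC content was 80.7% for Kcnmb4, 78.3% for Kcnma1 and 51.7% for Kcnmb1, against a median of 51.7% over 33469 promoters. Of all these promoters 33.1% held a GC box and 37.5% a CCAAT box. A match describes letters in this window and nothing more.

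Kir genes were led by Kcnj10, which encodes Kir4.1, the channel of satellite glia that takes up potassium around sensory neurons. Kcnj10 had 27.0, 32.9, 29.9, 28.2 and 29.1 TPM in replicates 1 to 5, a mean of 29.4 ± 2.21. Replicate 2 was high and replicate 1 low, and all libraries lay above every other Kir gene. Its named transcripts accounted for 65.9% of that level. Kcnj16, the Kir5.1 subunit that joins Kir4.1 in kidney and brainstem, had 0.0882, 0.280, 0.184, 0.109 and 0.0408 TPM, backed by 2 to 8 reads per library. Kcnj10 exceeded Kcnj16 by a log2 ratio of 7.02 ± 0.48 (SD, n = 5) in 5 of 5 libraries, with an exact two-sided sign-flip p = 0.062. That is the smallest p that 32 sign patterns over 5 libraries allow, so no pair below can pass 0.05, and log2 ratios are of TPM + 0.1, which understates the ratio of low genes.

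Of the G protein-gated Kir genes, which are opened by Gi-coupled receptors such as opioid and GABA-B receptors, Kcnj3 and Kcnj9 were detected and Kcnj5 and Kcnj6 were not. Kcnj3 (GIRK1) had 12.9, 13.0, 12.5, 11.5 and 11.5 TPM, and Kcnj9 (GIRK3) had 6.0, 6.30, 5.87, 6.55 and 6.05 TPM. The groups of values did not overlap, and Kcnj3 was 1.98-fold higher (log2 0.98 ± 0.12; exact sign-flip p = 0.062). Kcnj9 is uncertain because the gene Igsf8, at 82.6 TPM, overlaps it and the strand setting is not known. Kcnj6 (GIRK2) averaged 0.494 ± 0.0975 TPM and stayed under 0.6 in every library, and Kcnj5 (GIRK4) averaged 0.859 ± 0.228 TPM and passed 1 TPM in 1 of 5 libraries. Kcnj3 lay above Kcnj6 by 4.40 ± 0.23 and above Kcnj5 by 3.73 ± 0.42 on the log2 scale, each in 5 of 5 libraries.

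The ATP-sensitive pair was represented mainly by Kcnj11, the Kir6.2 pore that closes when ATP rises. Kcnj11 had 2.90, 4.06, 4.12, 4.20 and 4.47 TPM, with replicate 1 apart from the others. Kcnj8, the Kir6.1 pore of vascular mural cells, averaged 0.517 ± 0.179 TPM and was under 1 TPM in every library. Kcnj11 was 6.75-fold higher than Kcnj8 (log2 2.76 ± 0.62; exact sign-flip p = 0.062). Their sulfonylurea receptor partners stood in the same order, with Abcc8 at 1.47 ± 0.214 and Abcc9 at 0.752 ± 0.147 TPM, and only Abcc8 was detected.

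Classical strong rectifiers of the Kir2 group were low. Kcnj14 (Kir2.4) led them with 4.33, 4.52, 4.75, 4.71 and 4.05 TPM. Kcnj2 (Kir2.1) had 1.25, 1.05, 1.38, 1.38 and 1.77 TPM, and Kcnj12 (Kir2.2) had 1.35, 1.14, 1.10, 1.18 and 1.69 TPM. The last pair overlapped, and Kcnj12 minus Kcnj2 was -0.07 ± 0.19 on the log2 scale (exact sign-flip p = 0.5). The remaining Kir genes, not all of which belong to the Kir2 group, were lower still. Kcnj4, Kcnj13, Kcnj15 and Kcnj1 averaged 0.181, 0.337, 0.0734 and 0.0154 TPM. Kcnj13 is overlapped by Gigyf2 at 25.5 TPM.

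K2P genes were led by Kcnk10, which encodes TREK2, a leak channel opened by stretch, warmth and lipids. Its values were 12.5, 13.8, 13.6, 13.1 and 12.9 TPM, backed by 625 to 817 reads per library. The coefficient of variation of 4.02% was the smallest of the detected members. The related mechanosensitive genes were lower: Kcnk4 (TRAAK) had 3.70, 3.01, 3.76, 2.22 and 4.58 TPM, and Kcnk2 (TREK1) had 2.62, 1.71, 1.70, 2.43 and 2.00 TPM. Kcnk10 exceeded Kcnk2 by 6.14-fold (log2 2.62 ± 0.32) and Kcnk4 by 3.84-fold (log2 1.94 ± 0.40), in 5 of 5 libraries each with an exact sign-flip p = 0.062. Kcnk2 was below Kcnk4 in 4 of 5 libraries with overlapping ranges (log2 -0.68 ± 0.52; exact sign-flip p = 0.125). Kcnk4 had the largest coefficient of variation of the detected members, 25.7%.

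Kcnk18, which encodes TRESK, a calcineurin-regulated leak channel known from sensory neurons, was not detected. It had 0.547, 1.61, 0.218, 0.989 and 1.02 TPM, resting on 3 to 22 reads per library, and reached 1 TPM in 2 of 5 libraries. The libraries ranged widely around a mean of 0.876 TPM. Kcnk10 lay above it by 3.98 ± 0.93 on the log2 scale, in 5 of 5 libraries. Calcineurin genes were well above this level, with Ppp3ca at 74.3 ± 2.66 and Ppp3cb at 66.4 ± 1.49 TPM.

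Genes of the halothane-inhibited group were both detected. Kcnk12 (THIK2) had 9.13, 10.4, 10.1, 8.36 and 10.0 TPM and Kcnk13 (THIK1), a channel known from microglia, had 2.75, 2.35, 3.22, 3.39 and 4.07 TPM. Kcnk12 was 3.02-fold higher (log2 1.59 ± 0.34; exact sign-flip p = 0.062). Among the weak inward rectifiers, Kcnk1 (TWIK1) had 1.70, 1.96, 1.91, 1.37 and 1.83 TPM, against 7.85, 6.95, 7.35, 7.2 and 8.43 TPM for Kcnk6 (TWIK2). These values did not overlap, with a log2 ratio of -2.05 ± 0.21 (exact sign-flip p = 0.062). Kcnk6 is uncertain, since an uncharacterized gene at 7.26 TPM overlaps it.

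The acid-sensitive TASK genes were scarce. Kcnk5 (TASK2) was detected at 1.99, 2.37, 2.57, 2.12 and 2.11 TPM. Kcnk3 (TASK1) had 0.539, 0.555, 0.424, 0.640 and 0.413 TPM and Kcnk9 (TASK3) had 0.0450, 0.0120, 0, 0.0199 and 0.0130 TPM. Every library of Kcnk3 lay above every library of Kcnk9, and neither reached 1 TPM. Kcnk7 averaged 0.130 TPM. Kcnk15 and Kcnk16 were at 0 in all libraries, and 3 reads over the 5 libraries would be 0.0189 and 0.0195 TPM, the limit set by counting error alone.

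Among Slo channels, the sodium-activated gene Kcnt1 (Slack), whose product slows firing after sodium entry, was the highest pore gene. Kcnt1 had 17.0, 19.4, 17.4, 16.1 and 18.2 TPM, and Kcnt2 (Slick) had 2.60, 2.71, 2.51, 3.31 and 2.81 TPM. Their ranges did not overlap, and Kcnt1 was 6.15-fold higher (log2 2.62 ± 0.22; exact sign-flip p = 0.062). Kcnma1, the BK pore gene, had 5.23, 5.73, 5.86, 5.97 and 5.51 TPM and lay below Kcnt1 in 5 of 5 libraries (log2 -1.62 ± 0.13). Kcnu1 (Slo3), known from sperm, was at 0, with a limit of 0.0243 TPM.

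BK beta subunits change the calcium sensitivity and the inactivation of the BK pore, and Kcnmb4, the neuronal beta4 gene whose product slows BK gating, was nearly alone. Kcnmb4 had 26.5, 33.2, 28.6, 27.3 and 26.0 TPM, with replicate 2 high. Kcnmb2 had 1.66, 1.18, 1.12, 0.967 and 1.27 TPM, under the threshold in replicate 4, and Kcnmb1, the smooth muscle beta1 gene, had 1.24, 0.473, 1.18, 1.40 and 0.701 TPM. Kcnmb4 exceeded Kcnmb1 by 27.5-fold (log2 4.78 ± 0.68) and Kcnmb2 by 21.5-fold (log2 4.42 ± 0.33), each in 5 of 5 libraries. Kcnmb3 averaged 0.0395 TPM. The TPM of Kcnmb4 rests on 1 named transcript of 1028 bases and that of Kcnma1 on 1 of 5453 bases, so Kcnma1 had more reads (381 to 539 per library) than Kcnmb4 (261 to 357). Kcnmb1 is overlapped by Kcnip1 at 12.6 TPM.

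SK/IK genes, whose products are opened by calcium inside the cell, were detected for 3 of 4 members. Kcnn1 (SK1) had 9.11, 12.6, 10.2, 12.3 and 10.4 TPM and Kcnn4, the intermediate-conductance channel of immune cells and some sensory neurons, had 9.34, 9.61, 10.4, 9.07 and 12.4 TPM. These ranges overlapped, with a log2 ratio of 0.10 ± 0.30 (exact sign-flip p = 0.5). Sums of named transcripts put Kcnn1 below Kcnn4, at -0.52. Kcnn3 (SK3) had 3.55, 4.18, 4.69, 4.08 and 3.90 TPM, and Kcnn2 (SK2) averaged 0.849 ± 0.205 TPM and reached 1 TPM in replicate 5 alone. Kcnn1 exceeded Kcnn3 by 2.63-fold (log2 1.39 ± 0.19) and Kcnn2 by 11.7-fold (log2 3.55 ± 0.34), each in 5 of 5 libraries.

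**Figure D3:**
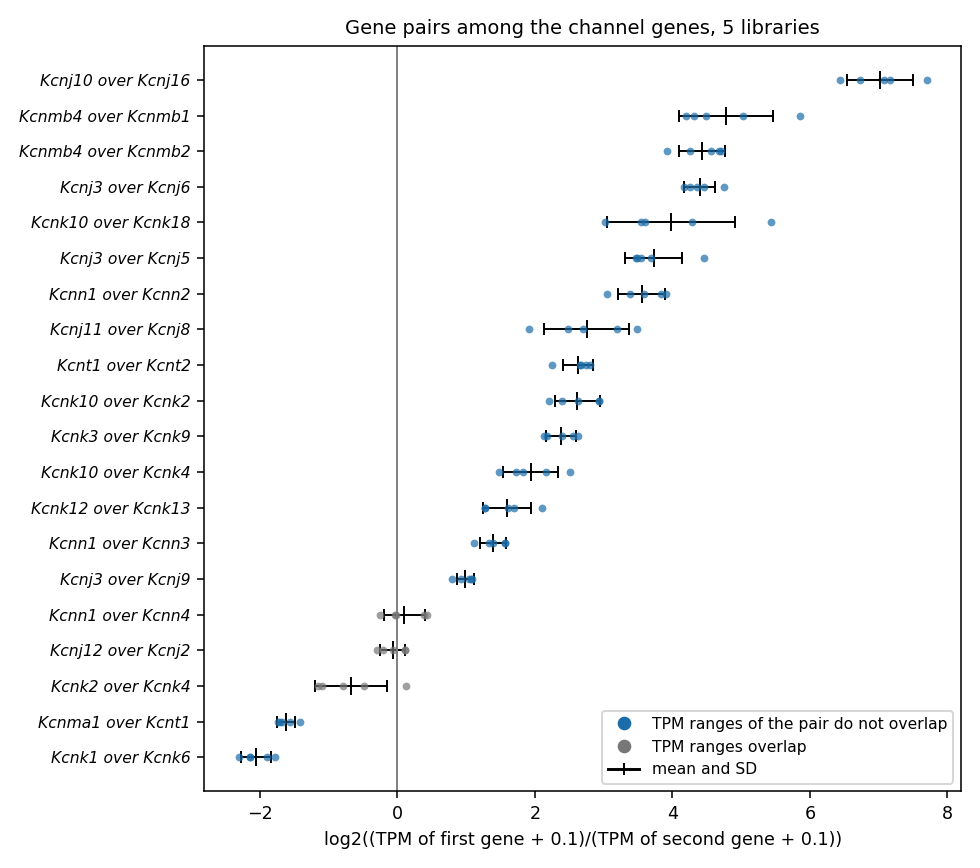
Log2 ratio of TPM + 0.1 between the first and second gene of 20 pairs, with points for the 5 libraries and the mean and SD in black. Pairs whose TPM ranges overlap are grey: Kcnn1 over Kcnn4, Kcnj12 over Kcnj2 and Kcnk2 over Kcnk4, and the other 17 pairs keep 1 direction in every library.

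Partner genes were detected in every list given here, from 1 of 2 sulfonylurea receptors to all genes of several lists. All 11 G protein beta and gamma genes listed as GIRK partners were detected, led by Gnb1 at 475 ± 7.11 TPM. The 5 GIRK regulators were detected as well, with Rgs4 at 93.3 ± 4.25 and Rgs7 at 21.3 ± 0.768 TPM. Of 6 genes that anchor Kir channels all were detected, led by Dag1 at 220 ± 14.8 TPM. Both Slack partners were detected, with Fmr1, an RNA-binding protein gene, at 28.4 ± 1.70 TPM. BK gamma genes were sparse, with 2 of 5 detected: Lingo1 at 11.5 ± 0.840 and Lrrc55 at 1.72 ± 0.0968 TPM, while Lrrc26 was at 0 in every library. K2P regulators, such as 14-3-3 and SUMO genes, were detected for 8 of 9, without Akap5. Tmem175, a lysosomal potassium channel gene, was at 34.2 ± 1.34 TPM, above every member.

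Spread between libraries was tested over the genes with recovered reads that passed a filter on low counts. This held for 16 of 24 members with recovered reads. The detected members Kcnj10, Kcnt1, Kcnn1, Kcnn3, Kcnk4, Kcnk1 and Kcnj2 had no recovered reads and were not tested. The estimated reads of 4 members varied beyond counting error: Kcnj11, Kcnn4, Kcnk13 and Kcnmb1 (edgeR Poisson fit, Benjamini-Hochberg adjusted p = 0.0143, 0.0239, 0.0227 and 0.0357 over 8871 genes). Of all genes tested 31.6% were called, so a count of 4 of 16 is near the background. Set against the trend of genes of like abundance, no tested member was called (edgeR negative binomial fit), where 2.36% of all genes tested were. In the same fit 0 of 16 also had an unadjusted p under 0.05, and 0 were called with DESeq2 size factors. The biological coefficient of variation was 0.168 for Kcnmb1, 0.126 for Kcnk13, 0.105 for Kcnj11 and 0.0856 for Kcnn4, with trend values of 0.116, 0.0993, 0.0846 and 0.0739.

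Single libraries decided these calls. Kcnj11 was lost without replicate 1 (edgeR adjusted p = 0.969) and Kcnn4 without replicate 5 (0.836). Kcnk13 was lost without replicate 2 (0.232) or replicate 5 (0.154). Kcnmb1 was lost without replicate 1 (0.0970) or replicate 5 (0.311), and also with no filter on low counts (0.0514). With no filter 5 of 24 members were called, where 2803 of 13789 genes were. They included Kcnk18 (edgeR adjusted p = 0.00634) and Kcnj15 (0.00435), which rest on 3 to 22 and 0 to 10 reads per library. The macrophage markers summed to 1643, 1234, 1859, 1820 and 1955 TPM in replicates 1 to 5. The satellite glia markers summed to 8590, 8513, 10344, 10516 and 11093 TPM. Both sums were lowest in replicate 2 and highest in replicate 5, as were Kcnk13, Kcnj2 and Kcnk6 among the 22 detected members. Replicate 2 was the lowest library for 3 detected members and the highest for 8, and replicate 5 was the highest for 7. The share of all genes with the same lowest and highest libraries was not computed, so these 3 members are not set against a background. Kcnn4 shared the high value of replicate 5 but was lowest in replicate 4. All 10 macrophage and 7 satellite glia markers were detected, and their part in the spread of these genes was not tested. The mural markers summed to 392 TPM in replicate 1 and 217 TPM in replicate 5, their highest and lowest libraries. That sum was led by Tagln and Acta2, at means of 150 and 110 TPM. Acta2, Tagln, Myh11 and Cnn1 had the same highest and lowest libraries as the sum, and Pdgfrb, Cspg4, Des and Rgs5 did not. Kcnmb1 was highest in replicate 4 and lowest in replicate 2, and a link between Kcnmb1 and mural cells was not tested.

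**Figure D4:**
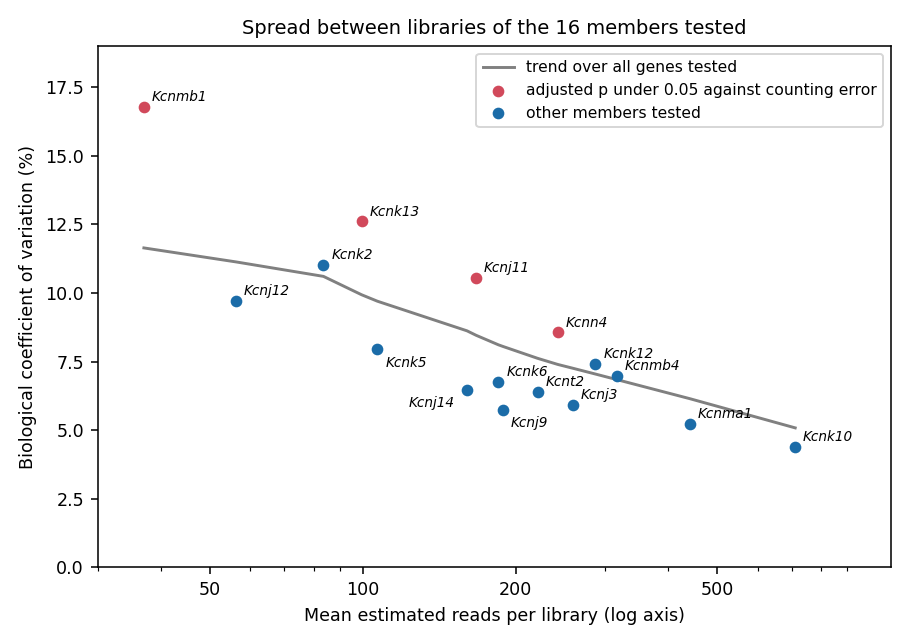
Biological coefficient of variation of the 16 members with enough recovered reads against their mean estimated reads per library (log axis), with the trend over all genes tested as a grey line. The 4 members called against counting error (red) lie above the trend, and so do Kcnk2, Kcnk12 and Kcnmb4, which were not called. The highest are Kcnmb1 at 0.168 and Kcnk13 at 0.126, shown here in percent.

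**Figure D5:**
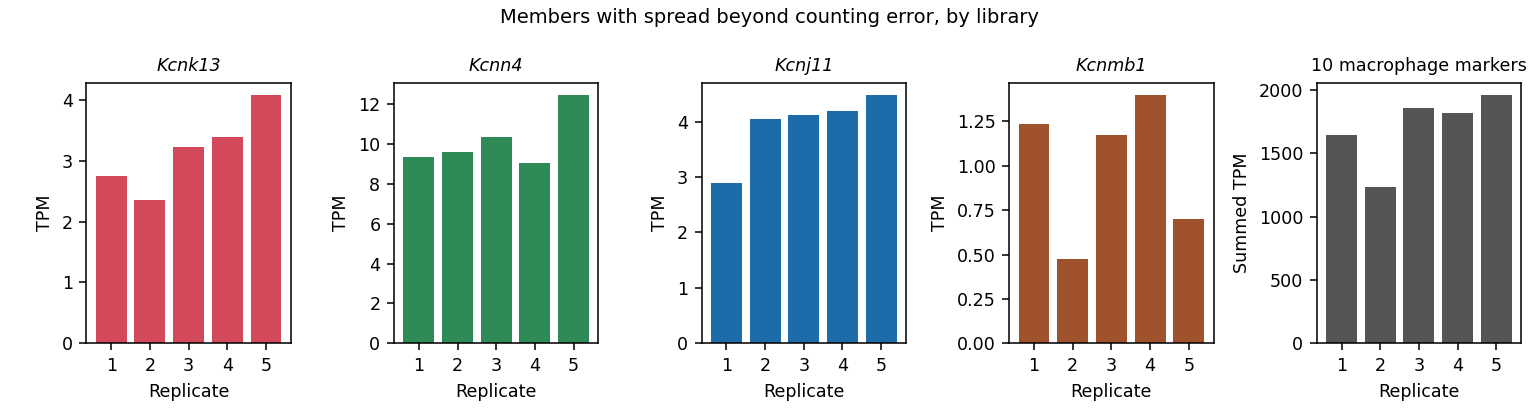
TPM of Kcnk13, Kcnn4, Kcnj11 and Kcnmb1 in replicates 1 to 5, beside the summed TPM of 10 macrophage markers. Replicate 1 is low for Kcnj11 at 2.90 TPM, replicate 5 is high for Kcnk13 and Kcnn4, and replicate 2 is low for Kcnk13, Kcnmb1 and the macrophage sum.

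Isoform estimates were led by 1 transcript in some members and divided in others. The leading named transcript of Kcnn1, of 1611 bases, held 91.0% ± 3.42 of the named sum, and that of Kcnn4, of 1931 bases, held 88.6% ± 6.80 (SD, n = 5). For Kcnt1 a transcript of 4880 bases held 74.1% ± 2.50 of 14 named ones, and for Kcnk6 one of 1898 bases held 73.7% ± 7.27. Kcnk12 had 69.6% ± 3.01 on a transcript of 1891 bases and Kcnj3 had 62.0% ± 3.59 on one of 1827 bases. Kcnk10 was divided, with its leading transcript at 37.0% ± 2.67, and Kcnj10 was shared between a long transcript of 5059 bases, at 48.7% ± 6.68, and a short one of 1438 bases, at 50.3% ± 6.37. These shares are Salmon estimates, and unnamed transcripts are left out of them.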

How the data were processed

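RNA-seq of 5 libraries was used, and all of them form 1 group. Trim Galore 0.6.6, cutadapt 2.8, Salmon 1.5.1 and build mRatBN7.2 are listed in the submitters' processing notes. Order, settings and strand use were not given in the sources used here. Gene TPM comes from the deposited combined table and is scaled by the authors for length and depth. The files deposited for each library list 98811 transcripts, with a Salmon estimated count and TPM for each, per the file headers.

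Transcripts were named through a RefSeq table of GRCr8 (68.1% matched). For 13805 genes with any signal, 24 members among them, the named sum lay within 10% of the combined table in every library, and their expected counts were rounded to whole numbers and used as recovered reads (67.1% to 67.4% of a library). Members that overlap a gene with over 25% of their TPM, or that resemble a paralog, are uncertain.

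Gene pairs were compared with the exact two-sided sign-flip test, unadjusted, over 20 pairs, with a pseudocount of 0.1. Spread was tested with edgeR 4.0.16 (TMM, filterByExpr, intercept only), deviance against chi-square, Benjamini-Hochberg over all genes tested, threshold 0.05, and checked on simulated data. DESeq2 1.42.0 gave alternative size factors. Poisson fits treat estimated reads as counts, and intervals and floors cover counting error only. One list of partner genes is not reported here. Members, lists and pairs were chosen with earlier results of these data known. The text gives every member, values by library for the 3 highest detected members of each class, for pairs of detected genes and for members above the trend, with some others added after their values were seen, and the leading isoform of the 8 highest members with 2 or more named transcripts.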

Additional observations from a re-analysis of the deposited data

Results flagged for a closer look

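Kcnj11 in replicate 1 stood apart from the other libraries. It was at 2.90 TPM, against 4.06 to 4.47 TPM in the other 4, a gap of 0.734 of the whole range. It was the 1 value of this kind among 27 members and class sums examined, and chance gives about 1 in 20.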

How the results depend on the processing

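No paired analysis was possible because the 5 libraries form 1 group. The count of 22 detected members was 17 to 24 under the other thresholds and sources, and 22 to 23 when each replicate was left out. Sums of named transcripts moved the class shares to 29.9% for Kir, 25.9% for K2P, 11.6% for SK/IK, 3.48% for Kcnma1 and 18.3% for BK beta genes, and detected members alone put sodium-activated genes at 11.2%. Those sums leave out unnamed transcripts. They also turned 2 pairs whose TPM ranges overlapped, Kcnj12 over Kcnj2 to 3.79 (no read on the named Kcnj2 transcript) and Kcnn1 over Kcnn4 to -0.52. Without turning, 9 log2 ratios moved by over 1.5-fold: Kcnj3 over Kcnj5 to 6.15 and over Kcnj6 to 6.13, Kcnmb4 over Kcnmb2 to 5.92, Kcnk1 over Kcnk6 to -3.62, Kcnk3 over Kcnk9 to 1.00, Kcnj11 over Kcnj8 to 3.44, Kcnj10 over Kcnj16 to 6.39, and Kcnn1 over Kcnn2 to 4.25 and over Kcnn3 to 1.99. All 20 pairs kept their direction with pseudocounts of 0.01 and 1 and without each replicate, though Kcnj10 over Kcnj16 ran from 4.74 with 1 to 7.85 with 0.01, and Kcnk3 over Kcnk9 from 0.57 to 4.42. Members varying beyond counting error numbered 2 to 6 without 1 replicate, and all genes 1736 (without replicate 1) to 2631. Low reads limit Kcnk18, Kcnj16 and the members under 1 TPM.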
